A study of Mus musculus with 7 samples.

Results

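The 7 genes of major histocompatibility complex (MHC) class II antigen presentation described here are H2-Aa and H2-Ab1 (alpha and beta chain of I-A), H2-Eb1 (beta chain of I-E), H2-DMa and H2-DMb1 (the exchange catalyst), Cd74 and Ciita. They were chosen by gene symbol from 44818 features. All 7 were found and all 7 were among the 16028 features, called genes below, that had enough counts to be tested.

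MHC class II molecules display peptides from engulfed proteins to CD4+ T cells. An alpha and a beta chain are joined in the endoplasmic reticulum by the invariant chain (Cd74), which blocks the peptide groove until lysosomal proteases trim it. The last fragment is then exchanged for peptide by the H2-DM heterodimer. Transcription of all these genes depends on the coactivator Ciita, which docks on factors bound to shared X and Y boxes in their promoters. Constitutive expression is known mainly from dendritic cells, B cells and macrophages, and interferon gamma induces it in other cells.

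RNA was sequenced from hindlimb tendon of mice on a C57BL/6 background, in 3 groups. The tenotomy group (n = 2 libraries) was the site of a cut Achilles tendon 3 weeks after surgery, taken between gastrocnemius and calcaneus. These mice had also been scalded on the dorsal skin for 18 s by an aluminum block (60 °C) that covered 30% of body surface. The contralateral group (n = 3) was the intact hindlimb tendon of mice that had both injuries, also at 3 weeks. The uninjured group (n = 2) came from wild-type mice with neither injury. The labels name no transgene and give no age or sex, and they do not say whether the libraries of a group came from separate animals or whether tenotomy and contralateral libraries shared mice, so p-values measure only the spread between these libraries.

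Libraries held 25927171 to 36725106 estimated counts, but 5 features took 76.4% to 81.4% of them, which left 4934057 to 8375626 counts for all other features. Levels are given as CPM, the usual depth-scaled read count, with TMM-scaled library totals that include those 5 features, and the values of the class II genes are small for that reason. Tendon markers such as Col1a1 and Tnmd were present in every library. Skeletal muscle genes were too, and took 3.91% to 4.58% of the counts outside the 5 features in the contralateral libraries and uninjured replicate 2, but 0.552% to 0.685% in the tenotomy libraries and uninjured replicate 1. In muscle genes the uninjured libraries thus stood apart from each other, and levels of that group are given library by library. The summed CPM of 9 tendon genes came mostly from Col1a1 and Col1a2. In that sum the uninjured libraries lay closer together, at 4590 and 4130 in uninjured replicates 1 and 2. Single tendon genes varied. In the same order Tnmd was at 25.3 and 11.8 CPM and Thbs4 at 163 and 70.9 CPM. Dcn was at 190 and 176 CPM and Fmod at 97.6 and 137 CPM. The tendon sum was 4960 and 4980 CPM in the tenotomy libraries and 992 to 1430 CPM in the contralateral libraries. For Fmod, Dcn and Mkx the libraries of these 2 groups overlapped. The library labelled uninjured replicate 1 lay near the tenotomy libraries in muscle genes (1210 against 981 and 975 summed CPM) and in the class II genes (77.8 against 83.5 and 80.1 summed CPM). Whether its label is right was not tested, and both comparisons with the uninjured group take the label as given.

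The promoters are shown because class II genes are known for shared X and Y boxes. RefSeq windows on GRCm38.p6, from 250 bases before to 50 bases after a start site, were matched for 4 of the 7 genes: H2-Aa, H2-Eb1, H2-DMa and H2-DMb1. In 3 of these genes the window held X-like letters (CTNGNAACT) followed on the same strand, after 25 or 26 bases, by the Y-like letters GATTGG. The letters were written with these windows in view. Both are in capitals below, 5′ to 3′ on the gene's strand, for chr17:34287847-34287927 (minus strand), chr17:34305753-34305832 (plus strand) and chr17:34153074-34153154 (plus strand), in that order.
H2-Aa: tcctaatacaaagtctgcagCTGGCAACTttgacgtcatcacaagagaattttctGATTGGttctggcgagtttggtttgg
H2-Eb1: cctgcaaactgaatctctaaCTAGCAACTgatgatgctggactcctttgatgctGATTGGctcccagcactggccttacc
H2-DMb1: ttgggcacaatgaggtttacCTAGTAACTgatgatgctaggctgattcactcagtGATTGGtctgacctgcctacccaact
Searched on both strands, the X-like letters occurred in 4.10% of the 32851 mouse windows and the Y-like letters in 16.1%. The 2 patterns do not overlap each other. The pair in this order with at most 30 bases between occurred in 9 windows (0.0274%), each of another gene. Besides the 3 class II genes these were 1700048F04Rik, BC051142, Catsper2, Dctpp1, Pdia3 and Tmem108. The 2 windows of H2-DMa held no pair, and 1 of them held the Y-like letters. Both windows (34122582 to 34122881 and 34125268 to 34125567) lie inside the gene span given below, so bases before that gene start were not searched. The H2-DMb1 stretch also begins after the gene start given below. These are matches of letters, and no binding was measured.

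Between the cut tendon and the contralateral tendon, every class II gene was higher in both tenotomy libraries than in all 3 contralateral libraries. Non-overlap in this direction was seen for 31.9% of all genes. In the edgeR quasi-likelihood fit, 5 of the 7 rose past an adjusted p-value of 0.05 and none fell, against 13.6% of all genes that rose. The 5 were the classical chains H2-Aa, H2-Ab1 and H2-Eb1 together with Cd74 and Ciita. H2-DMa and H2-DMb1 did not pass. The median log2 fold change of the 7 genes was 2.18, and that of all genes was 0.

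H2-Aa (ENSMUSG00000036594.15; chromosome 17, 34282744 to 34287823, minus strand, GRCm38) was at 3.56, 4.07 and 2.94 CPM in contralateral replicates 1 to 3, at 17.9 and 16.9 CPM in tenotomy replicates 1 and 2, and at 15.9 and 3.23 CPM in uninjured replicates 1 and 2. The tenotomy libraries were high and close together, the contralateral libraries were low, and the uninjured libraries lay 1 near each level. Tenotomy libraries averaged 17.4 CPM ± 0.767 (SD, n = 2), against 3.52 ± 0.567 (SD, n = 3) for the contralateral libraries. H2-Aa rose 4.93-fold (log2 fold change 2.30, SE 0.54, edgeR adjusted p = 0.0205), a change above that of 97.6% of genes.

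H2-Ab1 (ENSMUSG00000073421.6; chromosome 17, 34257689 to 34269419, plus strand) encodes the chain that pairs with H2-Aa. It was at 3.03, 2.59 and 1.76 CPM in the contralateral libraries, 13.5 and 12.1 CPM in the tenotomy libraries, and 12.2 and 2.34 CPM in the uninjured libraries. As for H2-Aa, the tenotomy libraries and uninjured replicate 1 were high and the other 4 low, and here uninjured replicate 1 lay between the tenotomy libraries. H2-Ab1 rose 5.20-fold at the tenotomy site (log2 fold change 2.38, SE 0.57, edgeR adjusted p = 0.0219).

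H2-Eb1 (ENSMUSG00000060586.11; chromosome 17, 34305867 to 34316674, plus strand) showed the largest change of the 7. It was at 2.40, 2.90 and 1.54 CPM in the contralateral libraries, 14.8 and 12.9 CPM in the tenotomy libraries, and 13.8 and 2.79 CPM in the uninjured libraries. The rise at the tenotomy site was 6.06-fold (log2 fold change 2.60, SE 0.57, edgeR adjusted p = 0.0181), above that of 98.3% of genes. The alpha chain of I-E is not made in C57BL/6 mice, and its gene, annotated as the pseudogene H2-Ea-ps, had 0 counts in all 7 libraries. A count of 0 allows up to 3 counts, which is 0.0815 to 0.112 CPM per library. H2-Eb1 overlaps the antisense gene Gm20513, and whether counting used strand is not given in the sources used here.

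Cd74 (ENSMUSG00000024610.15; chromosome 18, 60803848 to 60812652, plus strand) was the most abundant of the 7. It was at 7.04, 8.31 and 6.33 CPM in the contralateral libraries, 32.6 and 32.9 CPM in the tenotomy libraries, and 30.2 and 6.70 CPM in the uninjured libraries. The gap between the groups was far larger than the spread within either injured-mouse group, whose SDs were 0.165 (n = 2) and 0.999 (n = 3). Cd74 rose 4.53-fold (log2 fold change 2.18, SE 0.51, edgeR adjusted p = 0.0207).

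The invariant chain is made in a short and a long form. The long transcript has 1 extra coding exon of 192 bases. Its share of the Cd74 counts, as split between isoforms by the authors' quantification, was 19.8%, 36.7% and 29.5% in the contralateral libraries, 34.8% and 35.4% in the tenotomy libraries, and 36.7% and 32.8% in the uninjured libraries. The tenotomy values fell inside the contralateral range, so a shift between forms was not detectable at this depth. Each form had more counts in both tenotomy libraries than in any contralateral library. The short form of Cd74 had 782.5 and 637.9 counts against 144.4 to 184.8, and the long form had 418 and 348.9 against 37.3 to 107.3.

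Ciita (ENSMUSG00000022504.10; chromosome 16, 10480059 to 10528418, plus strand), the coactivator on which the others depend, rested on fewer reads, with 15 to 25 counts per contralateral library and 73 in each tenotomy library. It was at 0.562, 0.711 and 0.556 CPM in the contralateral libraries, 1.98 and 2.43 CPM in the tenotomy libraries, and 2.48 and 0.585 CPM in the uninjured libraries. It rose 3.57-fold (log2 fold change 1.84, SE 0.50, edgeR adjusted p = 0.0323). The files list 1 Ciita transcript, so its alternative first exons, which are used in different cell types, could not be told apart, and the gene overlaps Dexi on the other strand.

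H2-DMa and H2-DMb1 encode the 2 chains of the peptide exchange catalyst. H2-DMa (ENSMUSG00000037649.10; chromosome 17, 34119541 to 34139101, plus strand) was at 0.412, 0.569 and 0.525 CPM in the contralateral libraries, 0.978 and 1.57 CPM in the tenotomy libraries, and 1.04 and 0.206 CPM in the uninjured libraries. These values came from 11 to 20, 36 and 47, and 29 and 6 counts, and the tenotomy libraries differed from each other more, relative to their level, than for any classical chain. The log2 fold change was 1.31 (SE 0.52, edgeR adjusted p = 0.0948). H2-DMb1 (ENSMUSG00000079547.4; chromosome 17, 34153072 to 34160230, plus strand) was at 0.749, 0.768 and 0.525 CPM in the contralateral libraries, 1.71 and 1.47 CPM in the tenotomy libraries, and 2.08 and 0.619 CPM in the uninjured libraries. Its log2 fold change was 1.22 (SE 0.45, edgeR adjusted p = 0.078). Its near-identical neighbour H2-DMb2 had 1 to 12 counts per library, and how reads were split between the copies is uncertain.

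**Figure D1:**
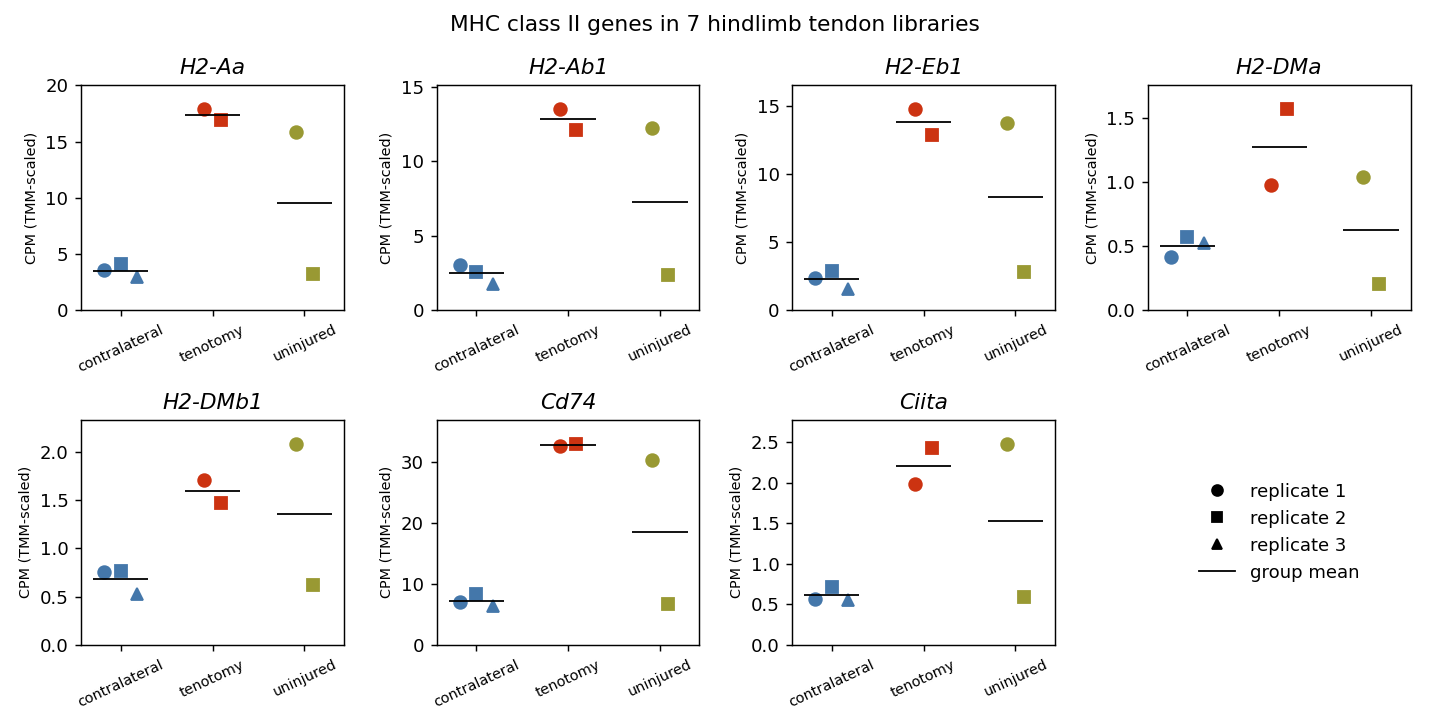
TMM-scaled CPM (y axis, from 0) of each class II gene in the 7 libraries, by group, with replicates as marker shapes and group means as lines. Both tenotomy libraries lie above all 3 contralateral libraries in every panel, and the 2 uninjured libraries lie far apart, for Cd74 at 30.2 and 6.70 CPM.

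The calls rested on all of the libraries compared. When any 1 of the 5 contralateral or tenotomy libraries was left out, 0 of the 7 class II genes and 0 of all genes passed in edgeR, so the counts for the gene lists below also went to 0. With any 1 contralateral library left out, 5 of the 7 had an unadjusted edgeR p-value under 0.05. Such p-values were common, at 6937 of 16028 genes in the fit of all libraries, and their share in the left-out fits is not reported here. Over the fits without 1 of these 5 libraries, the log2 fold changes of the 5 called genes lay between 1.68 and 2.82. All 7 rose when uninjured replicate 1 or uninjured replicate 2 was left out (21.0% and 21.2% of all genes rose), or when only the 2 groups were fitted (22.1% rose). With upper quartile scaling the median of all genes shifted to 0.11 and that of the class II genes to 2.29.

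Levels per transcript length were compared with TPM, the deposited length-scaled abundance, where the order at the tenotomy site was Cd74 at 4.33 TPM ± 0.337 (SD, n = 2), H2-Aa at 2.72 ± 0.072, H2-Eb1 at 2.01 ± 0.0541, H2-Ab1 at 1.89 ± 0.0361, H2-DMb1 at 0.202 ± 0.0298, H2-DMa at 0.158 ± 0.0639 and Ciita at 0.0607 ± 0.0135. H2-DMb1 and H2-DMa did not differ beyond their spread. The means of H2-Eb1 and H2-Ab1 lay close together, H2-Eb1 being the higher in both tenotomy libraries. In contralateral tendon Cd74 was again highest, at 1.02 TPM ± 0.245 (SD, n = 3), followed by H2-Aa at 0.587 ± 0.160, and H2-Ab1 at 0.390 ± 0.114 and H2-Eb1 at 0.356 ± 0.141 did not differ beyond their spread. Ciita was lowest there too, at 0.0169 TPM ± 0.00402.

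Across the 7 libraries the log2 CPM of the class II genes followed each other. Pearson's r over the 21 pairs had a median of 0.974 and reached 0.999 for H2-Aa with Cd74, and the lowest value was 0.797, for H2-Eb1 with H2-DMa. The libraries lie at 2 separate levels, so r mainly reflects that separation. By the same measure, the genes outside the group whose pattern was most like its mean were Myof, Aspn, Cilp, Cyb5r3, C4b, Actb, Tubb5, Fn1, Svep1 and Rbm3, with r of 0.9921 to 0.9972 among 2013 well-expressed candidates. They include matrix genes (Aspn, Cilp, Fn1 and Svep1), cytoskeletal genes (Actb and Tubb5) and a complement gene (C4b). The cut at 10 genes is arbitrary, since 17 candidates had r over 0.99. Marker and class I genes followed just behind, with r of 0.992 for Lyz2 and B2m, 0.991 for Adgre1 and 0.988 for Ptprc and Ctss. Fn1, encoding fibronectin, went from 77.0 to 103 CPM in the contralateral libraries to 1010 and 1050 CPM in the tenotomy libraries, and stood at 774 and 88.6 CPM in the uninjured libraries.

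Tenotomy was compared with uninjured tendon next. No class II gene passed in edgeR (0 of 7, also 0 at an unadjusted p-value under 0.05, 0 with limma-voom and 0 of the 4 to which DESeq2 gave an adjusted p-value). In edgeR 0% of all genes passed, with 10.9% at an unadjusted p-value under 0.05. Of all 2977 genes with a DESeq2 adjusted p-value, 4.87% passed. The log2 fold changes ran from 0.24 for H2-DMb1 to 1.02 for H2-DMa, with edgeR adjusted p-values of 0.518 to 0.851. Both tenotomy libraries lay above both uninjured libraries for H2-Aa and Cd74 alone, an order seen for 20.1% of all genes. The uninjured group was split: uninjured replicate 1 exceeded uninjured replicate 2 by 1.65 to 2.36 on the log2 CPM scale in the 7 genes. Tenotomy replicate 2 and uninjured replicate 1, which share a series of title numbers, differed by -0.49 (H2-DMb1) to 0.56 (H2-DMa) in log2 CPM. Without uninjured replicate 1, all 7 genes passed as higher at the tenotomy site, with a median log2 fold change of 2.32, in a fit where 11.4% of all genes were higher. Without uninjured replicate 2 none of the 7 passed, and their median was 0.06.

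In contralateral against uninjured tendon, 0 of 7 class II genes passed in edgeR and 0 with limma-voom. DESeq2 called H2-Eb1 (DESeq2 adjusted p = 0.0433), 1 of the 4 to which it gave an adjusted p-value. Of all 6394 genes with a DESeq2 adjusted p-value, 3.49% passed. With the series of title numbers as a covariate in edgeR, the median log2 fold change of the 7 was -2.05. Uninjured replicate 2 is the only library of its series, so in that fit uninjured replicate 1 alone stands for the uninjured group. No series holds both contralateral and uninjured libraries. That fit therefore links the 2 groups only through the tenotomy libraries, tenotomy replicate 1 in the contralateral series and tenotomy replicate 2 in that of uninjured replicate 1. In the fit without a covariate, 5 of 7 had an unadjusted p-value under 0.05, against 19.2% of all genes. After adjustment 0% of all genes passed. All 7 log2 fold changes were negative, from -1.85 for H2-Eb1 (SE 0.58, edgeR adjusted p = 0.215) to -0.29 for H2-DMa. Uninjured replicate 1 exceeded the contralateral mean by 0.98 to 2.60 in log2 CPM, whereas uninjured replicate 2 differed from it by -1.06 (H2-DMa) to 0.33 (H2-Eb1). Without uninjured replicate 1 the median log2 fold change of the class II genes was 0.11 and 0 of the 7 passed (0.617% of all genes did). Without uninjured replicate 2 it was -2.06, with 6 of the 7 lower in contralateral tendon, and 15.0% of all genes were lower. This comparison and the previous one share the uninjured libraries, and each shares its other group with the first.

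**Figure D2:**
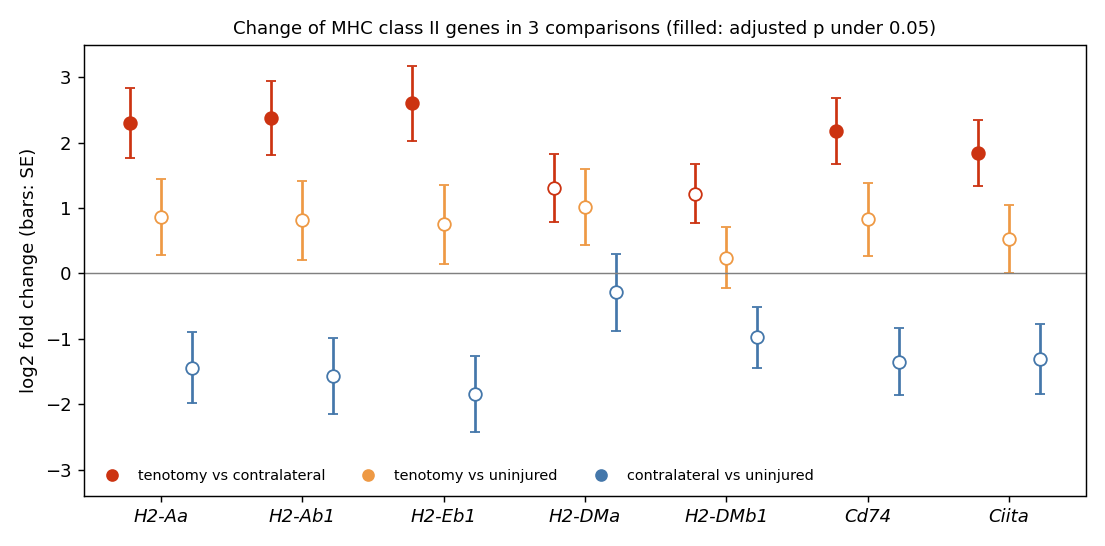
Log2 fold change (y axis) with standard error bars of each class II gene in the 3 comparisons, from the fit of all libraries, with filled points where the adjusted p-value was under 0.05. Filled points occur for 5 genes in tenotomy against contralateral, and all points against the uninjured group are open.

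Cell type markers moved with the class II genes. All 6 leukocyte genes rose at the tenotomy site (median log2 fold change 1.89), where 13.6% of all genes rose. Among them was Ptprc, the gene of CD45, which rose 3.96-fold (SE of the log2 fold change 0.47, edgeR adjusted p = 0.0208). The summed level of the 6 genes was 12.4 to 13.7 CPM in the contralateral libraries, 43.7 and 44.7 CPM in the tenotomy libraries, and 46.6 and 14.3 CPM in the uninjured libraries. Of 12 macrophage genes 10 rose, and their sum was 33.8 to 42.2, then 138 and 143, then 139 and 43.2 CPM. Adgre1, encoding the macrophage antigen F4/80, rose 5.40-fold (edgeR adjusted p = 0.0167). In bulk tissue, fewer cells of a type and less RNA per cell cannot be told apart, and the part of leukocyte content in the class II rise was not tested. Without uninjured replicate 1, all 6 leukocyte and 12 of 12 macrophage genes rose, in a fit where 21.0% of all genes did.

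Of 10 dendritic cell genes 7 could be tested and 3 rose (13.6% of all genes rose). These were Itgax (CD11c), Irf8 and Cd209a, all of which macrophages can express as well. Itgax had 3 to 6 counts per contralateral library and 84 and 88 counts in the tenotomy libraries, a 17.1-fold rise (edgeR adjusted p = 0.0167). Of the 7 tested, 6 had positive log2 fold changes, and the median was 1.37. Clec10a, Clec9a and Xcr1 had log2 fold changes of 1.37, 0.62 and 0.25 and did not pass (edgeR adjusted p = 0.0518, 0.0924 and 0.647). Zbtb46, a transcription factor of classical dendritic cells, was the only negative one, at -0.29 (edgeR adjusted p = 0.291), and its libraries overlapped. The summed dendritic level was 5.21 to 6.95 CPM in contralateral, 12.9 and 12.6 CPM in tenotomy, and 11.8 and 6.02 CPM in uninjured libraries.

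B and T cell genes were scarce. The 7 B cell genes, of which 2 could be tested and 0 passed (0 also at an unadjusted p-value under 0.05), summed to 0.939 to 1.17 CPM in contralateral, 1.44 and 1.47 CPM in tenotomy, and 2.55 and 1.62 CPM in uninjured libraries. Cd3e had 1 to 3 counts in 6 libraries and 13 in uninjured replicate 1. The 7 T cell genes summed to 1.37 to 1.95 CPM in contralateral, 2.80 and 3.83 CPM in tenotomy, and 5.42 and 1.86 CPM in uninjured libraries. Of 3 tested 1 rose, Cd4, where 13.6% of all genes rose.

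All 13 skeletal muscle genes fell at the tenotomy site, against 15.4% of all genes, by a median log2 fold change of -3.31. Their sum was 8910 to 11900 CPM in contralateral, 981 and 975 CPM in tenotomy, and 1210 and 8820 CPM in uninjured libraries, so the libraries with high class II levels were those with low muscle levels. The part of muscle content in the class II rise was not tested. Of the 9 tendon genes 4 rose and 0 fell, and of the 7 endothelial genes 0 rose and 1 fell. Of all genes 13.6% rose and 15.4% fell.

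**Figure D3:**
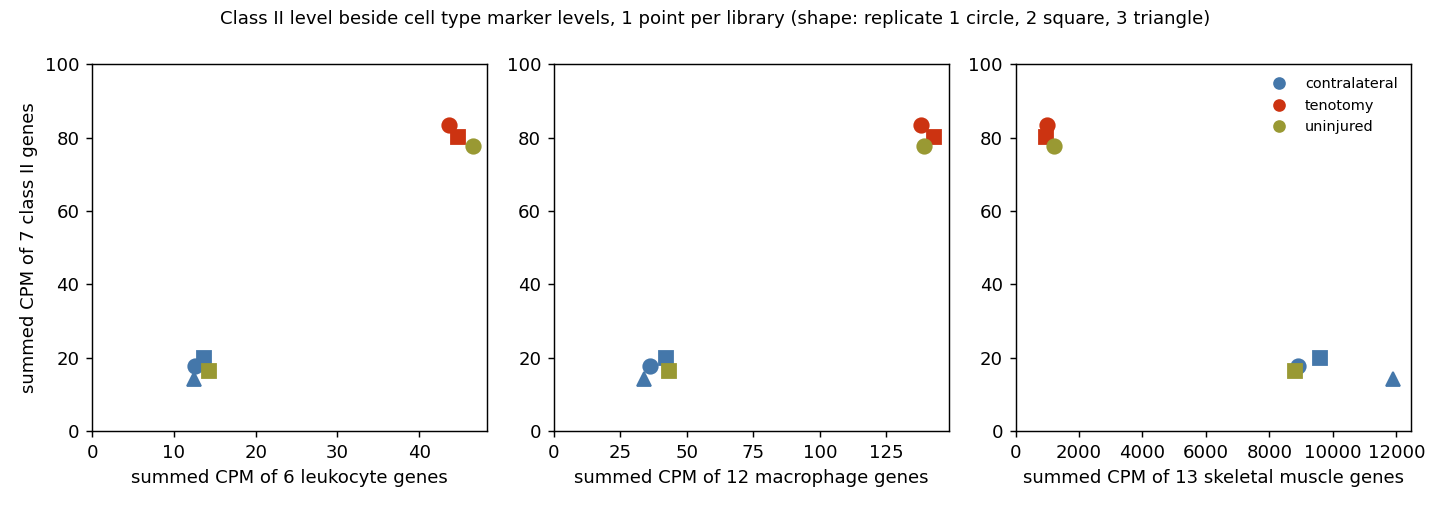
Summed CPM of the 7 class II genes (y axis) against the summed CPM of leukocyte, macrophage and skeletal muscle genes (x axes), 1 point per library, coloured by group. The tenotomy libraries and uninjured replicate 1 lie at 77.8 to 83.5 CPM of class II genes, and the contralateral libraries and uninjured replicate 2 at 14.2 to 19.9 CPM.

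The class II genes were then set against the leukocyte genes in the same library. Their summed counts were 1.41, 1.46 and 1.15 per count of the leukocyte genes in the contralateral libraries, 1.91 and 1.79 in the tenotomy libraries, and 1.67 and 1.15 in the uninjured libraries. The tenotomy ratios lay above all contralateral ratios (means 1.85 and 1.34, exact permutation p = 0.1, two-sided by absolute difference), and 0.1 is the smallest p that 10 splits allow. For the macrophage genes the means were 0.584 and 0.459 (exact permutation p = 0.1). Taken gene by gene against Ptprc, H2-Aa had means of 1.62 and 1.29 (exact permutation p = 0.1), H2-Eb1 had 1.28 and 0.827 (exact permutation p = 0.1) and H2-DMb1 had 0.147 at the tenotomy site and 0.246 in contralateral tendon (exact permutation p = 0.1), in the opposite direction. Ciita stood at 0.206 and 0.220 per Ptprc count (exact permutation p = 0.5), with overlapping libraries. In all 9 ratios were computed, 7 of them of single genes to Ptprc, and none could pass 0.05 before or after adjustment. Of the other 3 single-gene ratios, H2-Ab1 had means of 1.18 and 0.898 (exact permutation p = 0.2) and Cd74 of 3.04 and 2.66 (exact permutation p = 0.2). H2-DMa, like H2-DMb1, was lower at the tenotomy site, at 0.118 and 0.187 (exact permutation p = 0.3), with overlapping libraries.

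The pathway around the 7 genes was read from a list of 32 symbols, 31 of them in the annotation and 25 tested. At the tenotomy site 8 rose and 0 fell (13.6% and 15.4% of all genes), with a median log2 fold change of 0.34. Without uninjured replicate 1, 11 rose and 3 fell (Jak2, Nfyc and Rfxap), in a fit where 42.9% of all genes passed in either direction. By role, 6 of the 7 lysosomal processing genes rose. Ctss, encoding cathepsin S, which cleaves the invariant chain in antigen-presenting cells, rose 8.97-fold (log2 fold change 3.16, SE 0.60, edgeR adjusted p = 0.0167). It went from 1.46, 1.71 and 1.17 CPM in the contralateral libraries to 12.6 and 13.4 CPM, and was at 10.5 and 1.75 CPM in the uninjured libraries. Ifi30, encoding the lysosomal thiol reductase GILT, rose 4.10-fold (edgeR adjusted p = 0.0167).

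The other processing genes had smaller fold changes. Ctsz rose 3.24-fold, Lgmn (legumain) 2.76-fold, Ctsb 2.41-fold and Ctsl 2.01-fold, with edgeR adjusted p-values of 0.0167 to 0.0264. Ctsd, encoding the aspartic protease cathepsin D, did not pass (log2 fold change 0.15, SE 0.19, edgeR adjusted p = 0.578) and its libraries overlapped.

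Of the 7 factors that bind class II promoters 1 passed, as higher at the tenotomy site, as did 13.6% of all genes. Rfx5, Rfxank and Rfxap, the subunits of the RFX complex on the X box, did not. The log2 fold change was 0.23 for Rfx5 (SE 0.18, edgeR adjusted p = 0.369). It was 0.11 for Rfxank (SE 0.23, edgeR adjusted p = 0.757) and turned to -0.15 without tenotomy replicate 2. Rfxap had -0.65 (SE 0.25, edgeR adjusted p = 0.0901). Of the NF-Y subunits, which bind the Y box, Nfya rose 1.78-fold (log2 fold change 0.83, SE 0.19, edgeR adjusted p = 0.0189), while Nfyb and Nfyc had log2 fold changes of -0.22 and -0.48 and did not pass. Computed from length-scaled TPM, Nfya did not pass (log2 fold change 0.63, edgeR adjusted p = 0.145).

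The interferon gamma axis gave 0 of 6 tested genes past the threshold in edgeR, with a median log2 fold change of -0.07. Before adjustment, only Jak2 had a p-value below 0.05. Jak2 was lower at the tenotomy site (log2 fold change -0.44, SE 0.17, edgeR adjusted p = 0.0893). When either uninjured library was left out, 2 of the 6 passed as higher at the tenotomy site and 1 as lower. Of all genes, 42.9% passed in either direction without uninjured replicate 1 and 43.5% without uninjured replicate 2. The median of the 6 was again -0.07 in each of those fits. Ifng itself had 0 counts in all 7 libraries, which allows up to 3 counts in each. Its target Irf1 had a log2 change of 0.53 (SE 0.23, edgeR adjusted p = 0.121). March1, encoding the ubiquitin ligase that removes class II molecules from the surface, rose 2.73-fold (edgeR adjusted p = 0.0167). The costimulatory genes Cd80, Cd86 and Cd40 had log2 fold changes of 0.93, 0.92 and 0.45 and did not pass. The other class II genes H2-DMb2, H2-Oa, H2-Ob and H2-Eb2 had 0 to 12 counts per library and were too low to test.

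MHC class I genes, which present peptides made inside the cell and are expressed by most cell types, had smaller fold changes in the same comparison. Of 11 genes 3 rose and 0 fell (13.6% and 15.4% of all genes), with a median log2 fold change of 0.59 beside 2.18 for class II. The 3 were B2m (log2 fold change 0.76, edgeR adjusted p = 0.0488), Tapbp (0.69, edgeR adjusted p = 0.0231) and H2-D1 (0.59, edgeR adjusted p = 0.0327). None of them passed with length-scaled TPM (edgeR adjusted p = 0.0729, 0.0507 and 0.0633). Without uninjured replicate 1, 6 of the 11 rose, against 21.0% of all genes. No test of the difference between the class I and class II lists was made.

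**Figure D4:**
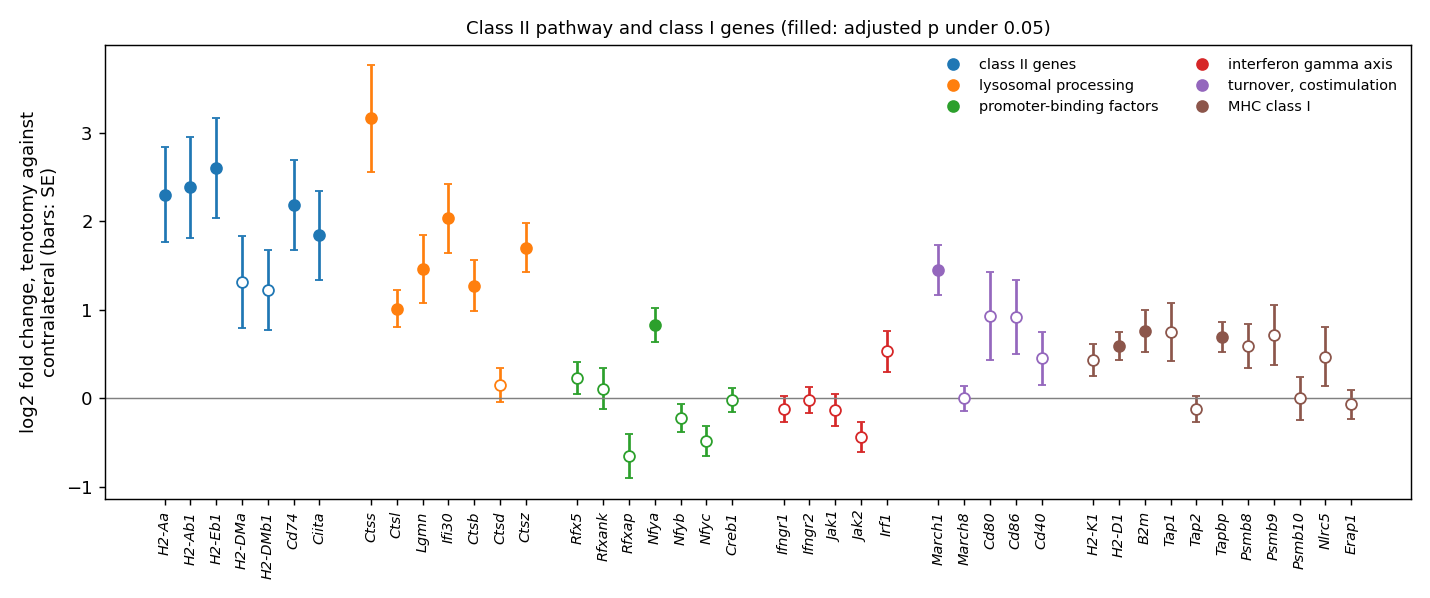
Log2 fold change between tenotomy and contralateral tendon (y axis) with standard error bars, for the class II genes and tested genes of the pathway and class I lists (1 gene of the interferon gamma axis is not drawn), coloured by role and filled where the adjusted p-value was under 0.05. The lysosomal genes reach 3.16 (Ctss), whereas the promoter-binding factors lie between -0.65 and 0.83.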

How the data were processed

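RNA-seq of 7 hindlimb tendon libraries was used. The estimated counts and TPM per transcript were deposited by the authors in 1 file per library. The submitters' processing notes name kallisto, FastQC 0.11.4 and the build GRCh38, although the transcript IDs are of mouse. The annotation release and strand setting are not given in the sources used here. IDs were matched without version to GENCODE M21 (GRCm38): 101510 of 103639 matched. Estimated counts were summed per gene and rounded. Unmatched transcripts stayed single features. Libraries were grouped by the condition label and numbered in accession order.

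Low features were removed with filterByExpr (minimum count 10), and TMM scaling and edgeR 4.0.16 quasi-likelihood tests (R 4.3.3) were applied in 1 fit of all 7 libraries, with Benjamini-Hochberg adjustment over 16028 genes and a threshold of 0.05. The SE is the log2 fold change divided by the square root of F. Log2 CPM used a prior count of 2. DESeq2 1.42.0 and limma-voom (limma 3.58.1) were alternatives, with other scalings, filters, length-scaled TPM, a covariate and left-out libraries.

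On simulated counts for the real means, 200 genes were given a log2 change of 2 in the tenotomy libraries. Against contralateral, edgeR called 177 of these and 11 others among 15535 genes. The 200 were drawn only from genes above a minimum mean count and are far fewer than the 4640 called in the data. All groups otherwise shared the same means. The simulation therefore does not cover genes of lower count or a split uninjured group. The class II genes and all lists were chosen with earlier results of these data known. Named were the 7 genes, pathway and class I genes past the threshold (at most 12), Rfx5, Rfxank, Rfxap and Ifng, 1 defining marker per leukocyte type, and the 10 genes of most similar pattern (mean log2 CPM of at least 3). Others were named after their values were seen. Single values of some listed genes are not reported here.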

Additional observations from a re-analysis of the deposited data

How the results depend on the processing

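In tenotomy against contralateral tendon, no class II gene changed direction under any alternative run. With only the groups compared, 7384 genes passed in place of 4640. Leaving out 1 library gave 0 to 7336 genes and 0 to 7 class II genes, 0 for each tenotomy or contralateral library. Rfxank turned to -0.15 with the title-number series as covariate. Tenotomy replicate 1 is the only tenotomy library in the contralateral series, so in that fit it alone stands for the tenotomy group. Over the left-out libraries Rfxank ran from -0.15 to 0.34. The value of -0.15 there, without tenotomy replicate 2, rests on the same tenotomy library and is not a separate check.

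Against the uninjured group results depended on which uninjured library was used. In tenotomy against uninjured tendon, 145 genes passed with DESeq2, 15 without a filter and 4 with the series covariate, in place of 0. Leaving out 1 library gave 0 to 4275 genes and 0 to 7 class II genes. With the series covariate, uninjured replicate 1 alone stands for the uninjured group, because uninjured replicate 2 is the only library of its series. In that fit H2-Ab1 turned to -0.02, H2-Eb1 to -0.09, Ciita to -0.03 and H2-DMb1 to -0.51. Over the left-out libraries Ciita ran from -0.17 to 1.91 and H2-DMb1 from -0.38 to 1.36, both lowest without uninjured replicate 2. In contralateral against uninjured tendon, 223 genes passed with DESeq2, 337 without a filter and 2468 with the series covariate, in place of 0, and 1, 1 and 6 class II genes. Leaving out 1 library gave 0 to 5393 genes and 0 to 6 class II genes. Between leaving out uninjured replicate 2 and uninjured replicate 1, H2-Aa ran from -2.17 to 0.12, H2-Ab1 from -2.32 to 0.06, Cd74 from -2.06 to 0.11, Ciita from -2.00 to 0.07, H2-DMb1 from -1.61 to 0.13 and H2-DMa from -1.03 to 1.28. With limma-voom H2-DMa turned to 0.13. Apart from the left-out libraries, the cause was not tested. List counts without each library were added after seeing the data. No paired analysis was possible because the labels number no replicates and name no animals. Depth limits H2-DMa, H2-DMb1 and Ciita most, with 6 to 73 counts per library.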
